A study of Rattus norvegicus with 120 samples.

Results

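The 9 genes described here, Cd68, Cd74, Mrc1, Csf1r, Laptm5, Adgre1, Cd163, Lyz2 and Ptprc, are commonly used as macrophage genes and were taken by symbol, 9 of 30560 genes in the count tables. Their RNA was measured by poly-A RNA-seq in kidney and heart of ZSF1 rats aged 30 weeks. ZSF1 obese rats carry a leptin receptor that does not work and develop diabetes and kidney disease, and ZSF1 lean rats are their controls. The compounds were given in chow. BT2 inhibits BDK, the kinase that switches off the breakdown of branched-chain amino acids, and empagliflozin inhibits SGLT2, the glucose transporter of the proximal tubule. Study A held a lean vehicle, an obese vehicle and an obese BT2 group, and study B held an obese vehicle, an obese empagliflozin and an obese BT2 + empagliflozin group, called the combination below. Each group had 10 libraries per organ, from 10 rats per the series text, with replicates 1 to 5 on library plate 1 and 6 to 10 on plate 2. The labels call every renal sample kidney, whereas the design text names both the whole organ and its cortex, so studies A and B were never set against each other in a test.

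Macrophages settle in organs before birth or arrive later as blood monocytes, and both depend on the growth factor receptor CSF1R and on the transcription factor PU.1 (gene Spi1). They take up dead cells and debris through scavenger receptors, digest them in lysosomes and present peptides on MHC class II molecules. In the kidney they lie between the tubules and in the heart between the muscle cells, and their number commonly grows in chronic kidney disease. Most of these genes are not exclusive to macrophages. Ptprc marks all white blood cells, Cd74 is made by every cell with MHC class II, and Lyz2 is also made by monocytes and neutrophils. In bulk tissue, fewer cells of a type and less RNA per cell cannot be told apart.

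Because PU.1 binds many promoters of this lineage, the letters GAGGAA, the core of its motif, were searched on both strands of the promoters that RefSeq gives on build GRCr8, from 250 bases before to 50 bases after the gene start. Of the 9 promoters, 8 held the letters at least once, and Cd163 was the exception. Among all 33469 promoters of that length, 27.6% held them. Cd68, Mrc1 and Csf1r had 2 matches each, as 4.83% of all promoters had 2 or more. A match is a description of the letters and not of binding. Promoters of 4 of the genes are shown as examples, 5′ to 3′ in the direction of the gene, with the matches in capitals (TTCCTC is the match on the other strand). They lie at chr10:54882392-54882691 on the minus strand (Cd68), chr17:82157475-82157774 on the plus strand (Mrc1), chr5:148371630-148371929 on the plus strand (Laptm5) and chr9:2329190-2329489 on the plus strand (Adgre1).
Cd68: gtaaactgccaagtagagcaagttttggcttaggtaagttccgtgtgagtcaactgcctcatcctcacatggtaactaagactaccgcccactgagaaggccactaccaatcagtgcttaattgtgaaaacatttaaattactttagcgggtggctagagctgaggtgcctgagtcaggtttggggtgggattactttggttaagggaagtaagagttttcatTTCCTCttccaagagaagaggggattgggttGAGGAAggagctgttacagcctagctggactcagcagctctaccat
Mrc1: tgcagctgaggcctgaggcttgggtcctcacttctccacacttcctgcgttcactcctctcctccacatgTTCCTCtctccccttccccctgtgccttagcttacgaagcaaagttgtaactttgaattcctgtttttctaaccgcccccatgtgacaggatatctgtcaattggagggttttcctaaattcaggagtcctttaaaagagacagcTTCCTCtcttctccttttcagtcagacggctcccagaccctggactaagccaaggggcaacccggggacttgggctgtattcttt
Laptm5: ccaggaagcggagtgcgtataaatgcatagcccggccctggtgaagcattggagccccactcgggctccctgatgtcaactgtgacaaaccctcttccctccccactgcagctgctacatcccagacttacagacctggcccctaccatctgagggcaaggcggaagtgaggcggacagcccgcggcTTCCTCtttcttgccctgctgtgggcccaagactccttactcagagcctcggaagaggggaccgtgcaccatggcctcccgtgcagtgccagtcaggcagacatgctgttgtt
Adgre1: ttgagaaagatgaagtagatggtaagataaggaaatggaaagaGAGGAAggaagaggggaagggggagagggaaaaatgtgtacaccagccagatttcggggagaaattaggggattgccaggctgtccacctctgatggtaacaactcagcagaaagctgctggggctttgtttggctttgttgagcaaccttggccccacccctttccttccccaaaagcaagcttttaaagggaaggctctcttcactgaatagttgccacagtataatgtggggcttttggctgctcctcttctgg
In Cd68 the matches began 27 bases before the start and at base 4 after it, and in Mrc1 they began 180 and 35 bases before. The single match began 63 bases before the start in Laptm5 and 207 bases before it in Adgre1.

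The median depth was 10.1 M counts (M, 1000000) in kidney and 12.2 M in heart. Kidney BT2 replicate 2 held 22774 counts and study B vehicle replicate 8 held 0.776 M. Both entered the tests but not the levels, which leaves n = 9 in these groups. Kidney markers stood at summed medians of 7267.6 to 13874.0 CPM (counts per 1000000 counts) in kidney and 2.1 to 3.09 CPM in heart, and heart muscle markers at 34184.0 to 40384.5 CPM in heart. Some libraries held transcripts of another tissue. Kidney lean replicate 8 had 2462.8 CPM of Actc1, the actin of heart muscle, where the median kidney had 1.22 CPM, combination replicate 7 had 263.6 CPM of it, and BT2 replicate 2 had Myh4, a skeletal muscle myosin, at 45955.9 CPM. Kidney combination replicates 5, 4 and 1 had the liver gene Alb at 854.6, 262.3 and 96.1 CPM. Kidney empagliflozin replicate 1 had the plasma cell gene Jchain at 418.8 CPM against a median of 4.02 CPM, and heart lean replicate 8 had the kidney gene Umod at 66.2 CPM against 0.245 CPM. These libraries, the 2 shallow ones and heart obese vehicle replicate 10 of study A are called doubted below, and results that rest on them are given with and without them. That heart had 16.2 M counts and no transcripts of another tissue are given for it. It held the highest Cd68, Laptm5 and Lyz2 of its group.

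In obese against lean kidneys of study A, 7 of the 9 macrophage genes rose and none fell at an adjusted p under 0.05 (edgeR quasi-likelihood test with Benjamini-Hochberg adjustment, used throughout). The share of all genes called higher was 16.9%. The median log2 difference of the 9 genes was 1.07, against -0.02 over all genes tested. In 4 of the 9 (Cd68, Csf1r, Laptm5 and Lyz2) the lowest obese library lay above the highest lean one, as did 2.38% of all genes tested. Plate 1 alone gave 9 genes higher (15.9% of all genes) and plate 2 alone gave 4 (5.25%).

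Csf1r, the receptor for the macrophage growth factors CSF1 and IL-34, ran from 32 to 51.5 CPM (median 39) in the 10 lean kidneys and from 55.5 to 101.3 CPM (median 80.9) in the 10 obese ones. The ranges did not touch. The log2 difference was 1.07 ± 0.106 (SE, adjusted p = 3.73e-07), with means of 39.2 ± 5.67 and 81.5 ± 15.6 CPM (SD, n = 10 each). Ptprc, the CD45 phosphatase of all white blood cells, ran from 14.7 to 27.7 CPM (median 16.8) in lean and from 16 to 62 CPM (median 37.5) in obese kidneys. The groups overlapped at the low end of the obese range, and Ptprc rose by 0.98 ± 0.188 (SE, adjusted p = 0.000442). Adgre1, the F4/80 antigen of rodent macrophages, ran from 17.9 to 23 CPM (median 20.2) in lean and from 9.78 to 39.5 CPM (median 24) in obese kidneys. Its obese range enclosed the whole lean range, and the log2 difference of 0.21 ± 0.151 did not pass (SE, adjusted p = 0.316). On plate 1 alone it was 0.52 ± 0.132 (adjusted p = 0.0105), and on plate 2 alone -0.09 ± 0.231 (adjusted p = 0.827).

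The lysosomal and secreted members moved the same way. Cd68, a glycoprotein of the lysosome membrane, ran from 3.82 to 6.75 CPM (median 4.4) in lean and from 7.06 to 15.4 CPM (median 10.9) in obese kidneys, without overlap. It rose by 1.25 ± 0.135 on the log2 scale (SE, adjusted p = 1.16e-06). Laptm5, a lysosomal membrane protein of blood cells, ran from 13.5 to 28.6 CPM (median 17.1) in lean and from 32.5 to 56.2 CPM (median 42.1) in obese kidneys. Every obese library stood above every lean one, and the rise was 1.27 ± 0.131 (SE, adjusted p = 6.96e-07). Lyz2, the lysozyme that breaks bacterial cell walls, ran from 245.0 to 662.5 CPM (median 316.2) in lean and from 739.1 to 985.0 CPM (median 799.4) in obese kidneys. The highest lean value was that of replicate 8, the other 9 lean kidneys stood at or below 359.1 CPM, and Lyz2 rose by 1.34 ± 0.147 (SE, adjusted p = 1.3e-06). The related lysozyme gene Lyc2 is close in sequence, so how the authors' estimated counts divide reads between them is uncertain.

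Cd74, the invariant chain that escorts MHC class II molecules, had the smallest called rise of the 9. It ran from 498.3 to 641.1 CPM (median 554.3) in lean and from 544.8 to 977.2 CPM (median 677.3) in obese kidneys. The groups overlapped, and the log2 rise was 0.33 ± 0.083 (SE, adjusted p = 0.00407). It did not pass in a fit of all 6 kidney groups (0.31, adjusted p = 0.0643), nor without the repeat runs (0.29, adjusted p = 0.117). Mrc1, the mannose receptor CD206, ran from 3.43 to 14.2 CPM (median 4.63) in lean and from 6 to 23.1 CPM (median 15.7) in obese kidneys. Lean replicate 8 held the highest lean value, the other 9 lean kidneys reached 7.33 CPM, and the rise was 1.36 ± 0.272 (SE, adjusted p = 0.000636). Cd163, the receptor that clears haemoglobin bound to haptoglobin, was near the lower limit of detection in kidney, with 0 to 322 counts and a median of 5 counts per library. It ran from 0 to 7.52 CPM (median 0.557) in lean and from 0.231 to 2.05 CPM (median 1.43) in obese kidneys. With all libraries the log2 difference was 0.04 ± 0.633 (SE, adjusted p = 0.974). Lean replicate 8, the kidney with heart and skeletal muscle transcripts, held the 7.52 CPM, and the other 9 lean kidneys stood at or below 1 CPM. Without it Cd163 rose by 1.30 ± 0.384 (adjusted p = 0.0103), which made 8 of 9 genes (19.6% of all genes higher), and Mrc1 rose by 1.68 ± 0.196 (adjusted p = 8.32e-07).

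**Figure D1:**
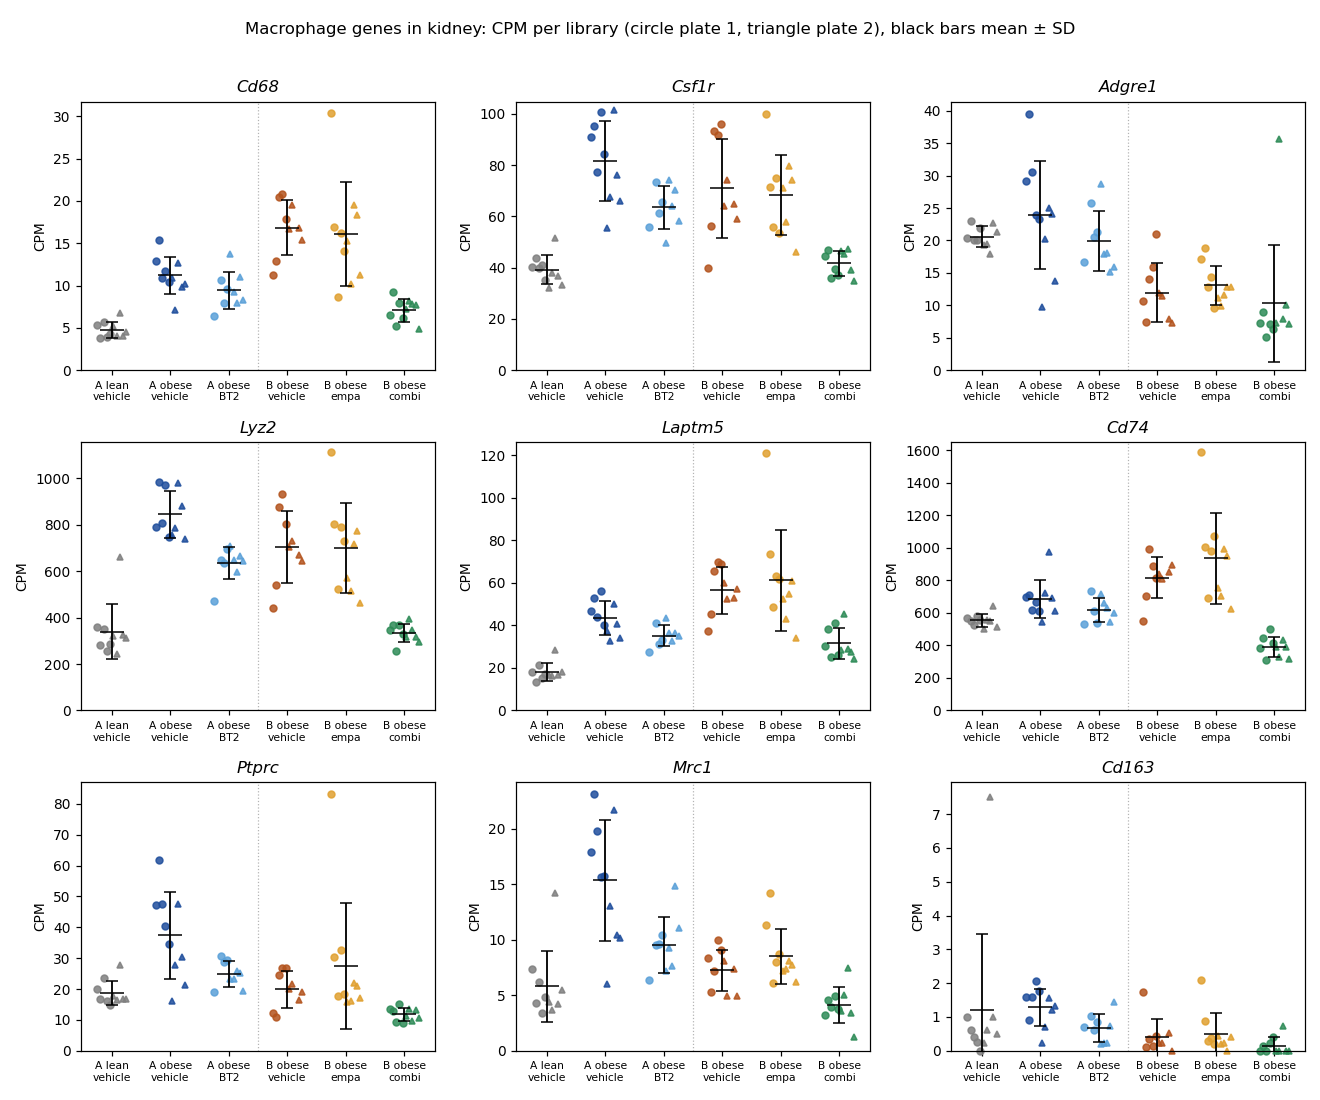
CPM of the 9 genes in each kidney library, by group, with study A left and study B right of the dotted line. Circles are plate 1, triangles plate 2, and black bars the mean and SD, cut at 0 where the SD exceeds the mean. Libraries under 1000000 counts are left out. Csf1r, Lyz2, Laptm5 and Cd68 separate lean from obese vehicle kidneys, and the single high lean values of Mrc1 and Cd163 belong to replicate 8.

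Other genes of the same pathways moved with them in obese kidneys. Of 18 further pan-macrophage and myeloid genes tested, 17 rose and none fell (median log2 difference 0.94), among them Ctss, a cathepsin of antigen processing (0.94 ± 0.102, adjusted p = 1.14e-06), Cd14, the co-receptor for lipopolysaccharide (1.19 ± 0.13, adjusted p = 1.29e-06) and Itgb2, the beta-2 integrin of white blood cells (0.88 ± 0.104, adjusted p = 2.92e-06). Of 8 genes of resident and scavenger macrophages tested, 5 rose and none fell. They included Siglec1, the sialoadhesin CD169 (2.83 ± 0.375, adjusted p = 1.05e-05) and the lectin Clec10a (2.16 ± 0.243, adjusted p = 1.74e-06). Of 11 genes of monocytes and inflammatory macrophages, 10 rose and none fell, with Ccr2, the chemokine receptor of blood monocytes, at 1.97 ± 0.281 (adjusted p = 2.27e-05) and Cd44, the hyaluronan receptor, at 1.56 ± 0.138 (adjusted p = 1.21e-07). Of 9 MHC class II genes 8 rose, with RT1-Db1 at 0.69 ± 0.091 (adjusted p = 1.04e-05).

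Of the growth factors and receptors of this lineage, 6 of 7 rose and 1 fell. The summed median of this list was 288.8 CPM in lean (213.9 to 346.3) and 278.2 CPM in obese kidneys (244.4 to 331.0). Spi1 is also on the list of further myeloid genes. Csf1 and Il34, the ligands of CSF1R, rose by 0.48 ± 0.069 (adjusted p = 2.54e-05) and 0.51 ± 0.078 (adjusted p = 4.48e-05), Spi1 by 0.95 ± 0.171 (adjusted p = 0.000249), and Tgfb1, which many cell types make, by 1.00 ± 0.139 (adjusted p = 1.75e-05). Of 10 genes of lipid-associated macrophages 6 rose and 1 fell. Spp1, which encodes osteopontin and is also made by tubule cells, rose by 2.88 ± 0.401 (adjusted p = 1.75e-05), and Gpnmb, a lysosomal glycoprotein, by 2.58 ± 0.335 (adjusted p = 8.19e-06). Without the libraries that held other tissues' transcripts, the counts were 17 of 18 for the further myeloid genes, 6 of 8 for the resident and 10 of 11 for the inflammatory genes.

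Markers of other blood cells also stood higher in obese kidneys. Of 6 T and NK cell genes tested 3 rose, and the summed level of the list ran from 6.74 to 12 CPM in lean and from 10.4 to 16.9 CPM in obese kidneys. Of 3 B and plasma cell genes 2 rose (summed 3.55 to 13.1 CPM and 9.14 to 16.1 CPM), and of 2 neutrophil genes 1 rose (2.3 to 8.9 CPM and 4.85 to 21.8 CPM). Of 4 dendritic cell genes tested 2 rose, with summed medians of 15.6 CPM in lean (12.3 to 22.6) and 21.5 CPM in obese kidneys (16.9 to 25.6). Dendritic cells also make Cd74, MHC class II and Itgax. The neutrophil granule genes Mpo, Elane, Mmp8 and Camp and the plasmacytoid dendritic cell gene Siglech had a median of 0 in kidney, as did the resident macrophage genes Vsig4 and Marco. Of 8 kidney defining genes 5 fell, and their summed median was 13874.0 CPM in lean and 9398.7 CPM in obese kidneys. Of 4 liver genes tested 4 rose, with summed medians of 163.3 and 330.9 CPM. The part of these lists in the rise of the macrophage genes was not tested.

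BT2 was compared with vehicle in obese kidneys of study A, with the same vehicle libraries as above. None of the 9 genes passed, where 5.67% of all genes were called. At an unadjusted p under 0.05, 6 of the 9 and 3444 genes in all passed, and the median log2 difference of the 9 was -0.34 against -0.01 over all genes. Lyz2 ran from 473.6 to 707.5 CPM (median 646.5) in the 9 BT2 kidneys with enough depth and from 739.1 to 985.0 CPM (median 799.4) in vehicle kidneys. These ranges did not overlap, as was so for 0.342% of all genes in that direction. With all libraries the log2 difference of Lyz2 was -0.48 ± 0.162 (SE, adjusted p = 0.0783). Csf1r ran from 49.4 to 74.2 CPM (median 64) with BT2, and the ranges overlapped with vehicle. Its log2 difference was -0.34 ± 0.103 (SE, adjusted p = 0.0517).

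Without BT2 replicate 2, the library of 22774 counts, Lyz2 fell by 0.41 ± 0.083 on the log2 scale (adjusted p = 0.00461) and Csf1r fell by 0.34 ± 0.103 (adjusted p = 0.0472), so that 2 of 9 passed, where 4.46% of all genes were called lower in that fit. Mrc1, with 6.32 to 14.8 CPM (median 9.56) on BT2, had a difference of -0.65 ± 0.201 (adjusted p = 0.0573), and Ptprc, with 18.9 to 30.6 CPM (median 25.2), one of -0.53 ± 0.165 (adjusted p = 0.0597). Both overlapped with the vehicle kidneys. DESeq2 called 4 of the 9 lower, Mrc1, Csf1r, Lyz2 and Ptprc, and 5.41% of all genes. The authors' deposited table of this comparison, which rests on 19 libraries, lists the same 4 genes as lower, and 6.19% of all genes. The remaining members gave -0.30 for Laptm5, -0.24 for Cd68, -0.21 for Cd74, -0.20 for Adgre1 and -0.85 for Cd163, with adjusted p from 0.108 to 0.477. On plate 1 alone 1 gene, Mrc1, passed (0.514% of all genes lower), and on plate 2 alone none did (0.310%).

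Among the other lists, 5 of 18 further myeloid genes fell with BT2 and none rose, where 3.41% of all genes were called lower. Itgam, the integrin CD11b of macrophages and neutrophils, fell by 0.70 ± 0.152 (adjusted p = 0.00804), Mpeg1, a pore-forming protein of phagocytes, by 0.55 ± 0.13 (adjusted p = 0.0149), Fcgr3a, a low-affinity receptor for antibodies, by 0.48 ± 0.1 (adjusted p = 0.00614) and Ctss by 0.40 ± 0.096 (adjusted p = 0.0161). Of 7 resident macrophage genes 3 fell, led by Siglec1 (-1.03 ± 0.22, adjusted p = 0.00771). Of 9 MHC class II genes none passed. Of 6 T and NK cell genes 2 fell, with summed levels of 8.82 to 13.8 CPM on BT2 and 10.4 to 16.9 CPM on vehicle, and the part of such cells was not tested.

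Against lean vehicle kidneys, which served as the controls of the obese vehicle group too, BT2-treated obese kidneys had 6 of 8 tested genes higher and none lower, where 19.0% of all genes were called higher. Cd163 did not pass the filter on low counts. The log2 differences were 0.98 ± 0.138 for Cd68 (adjusted p = 1.41e-05), 0.94 ± 0.12 for Laptm5 (adjusted p = 4.22e-06), 0.82 ± 0.226 for Lyz2 (adjusted p = 0.0071), 0.71 ± 0.091 for Csf1r (adjusted p = 4.21e-06), 0.69 ± 0.229 for Mrc1 (adjusted p = 0.0217) and 0.42 ± 0.128 for Ptprc (adjusted p = 0.0128). Cd74 (0.08, adjusted p = 0.775) and Adgre1 (-0.03, adjusted p = 0.866) did not pass. Without BT2 replicate 2, Cd74 passed at 0.18 (adjusted p = 0.0456), which made 7 of 8 (21.9% of all genes higher). On plate 2 alone 4 passed (1845 of 14244 genes higher), and Mrc1 (0.60, adjusted p = 0.251) and Ptprc (0.29, adjusted p = 0.191) did not. Ptprc did not pass in the fit of all 6 groups either (0.40, adjusted p = 0.111).

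Empagliflozin alone was compared with vehicle in obese kidneys of study B, and none of the 8 genes tested passed, either adjusted or at an unadjusted p under 0.05, where 1.06% of all genes were called. The largest difference was that of Ptprc, which ran from 15.7 to 83.3 CPM (median 19.7) on empagliflozin and from 10.9 to 26.9 CPM (median 20) on vehicle. The medians nearly coincided, and replicate 1 alone held the 83.3 CPM, with the next kidney at 32.8 CPM. The log2 difference was 0.42 ± 0.258 (adjusted p = 0.395, 95% interval -0.09 to 0.92). Replicate 1 was also the highest of its group in Cd68, Cd74, Laptm5, Lyz2 and Cd163. In the same library the summed level of B and plasma cell genes was 608.1 CPM against a group median of 24.4 CPM, and that of T and NK cell genes 73.7 against 15 CPM. For the other 7 genes tested the log2 differences ran from -0.07 (Cd68, 95% interval -0.42 to 0.28) to 0.24 (Mrc1, 95% interval -0.05 to 0.54). None of the other macrophage lists had a gene that passed.

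The combination was compared with vehicle in obese kidneys of study B, and 7 of 8 macrophage genes tested fell and none rose. The share of all genes called lower was 14.8%. The median log2 difference of the 8 was -0.83, against 0.01 over all genes tested. In Cd68, Cd74 and Lyz2 every combination kidney lay below every vehicle kidney, as did 1.35% of all genes. On plate 1 alone 7 fell (8.07% of all genes) and on plate 2 alone 6 (5.76%).

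Cd68 ran from 4.92 to 9.22 CPM (median 7.46) in the 10 combination kidneys and from 11.3 to 20.9 CPM (median 16.9) in the 9 vehicle kidneys. The groups were apart, and Cd68 fell by 1.25 ± 0.132 on the log2 scale (SE, adjusted p = 2.52e-07). Lyz2 ran from 254.6 to 396.0 CPM (median 337.9) on the combination and from 439.5 to 931.6 CPM (median 705.6) on vehicle. It fell by 1.10 ± 0.114 (SE, adjusted p = 1.96e-07), again without overlap. Laptm5 ran from 24.3 to 45.5 CPM (median 28.6) and from 37.1 to 69.9 CPM (median 57.3). The top of the combination range reached into the vehicle range, and Laptm5 fell by 0.88 ± 0.137 (SE, adjusted p = 4.32e-05).

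Cd74, whose rise with obesity was small, ran from 312.4 to 501.8 CPM (median 388.5) on the combination and from 552.3 to 995.1 CPM (median 841.5) on vehicle. No libraries overlapped, and Cd74 fell by 1.06 ± 0.099 on the log2 scale (SE, adjusted p = 5.31e-08). Its combination mean of 392.1 ± 60.8 CPM (SD, n = 10) stood below the mean of 554.2 ± 39.7 CPM of lean kidneys in study A (SD, n = 10), values of separate studies that were not compared by a test. Csf1r ran from 34.7 to 47.4 CPM (median 41.9) and from 39.8 to 95.9 CPM (median 64.8). The ranges overlapped at the lower end of the vehicle group, and Csf1r fell by 0.78 ± 0.128 (SE, adjusted p = 7.56e-05). Ptprc ran from 8.9 to 15.2 CPM (median 12.1) and from 10.9 to 26.9 CPM (median 20). It fell by 0.74 ± 0.156 (SE, adjusted p = 0.000838), with overlap.

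Mrc1 ran from 1.23 to 7.48 CPM (median 3.84) on the combination and from 4.92 to 9.96 CPM (median 7.38) on vehicle, and fell by 0.79 ± 0.216 (SE, adjusted p = 0.00683). The ranges overlapped, and without the doubted libraries of both groups the difference was -0.77 (adjusted p = 0.0556), which left 6 of 8 genes called (11.3% of all genes lower). Adgre1 ran from 5.09 to 35.7 CPM (median 7.27) on the combination and from 7.33 to 21.1 CPM (median 11.4) on vehicle. Combination replicate 7 held the 35.7 CPM and the other 9 stood at or below 10 CPM. With all libraries the log2 difference was -0.27 ± 0.313 (SE, adjusted p = 0.547). Without replicate 7, the kidney with heart muscle transcripts, Adgre1 fell by 0.68 ± 0.186 (adjusted p = 0.00777), an omission chosen after seeing the data. Without the doubted libraries of both groups, replicate 7 among them, Adgre1 gave -0.54 ± 0.237 and did not pass (adjusted p = 0.102). On plate 1 alone it fell by 0.98 ± 0.256 (adjusted p = 0.0221), and on plate 2 alone, which holds replicate 7, the difference was 0.47 ± 0.417 (adjusted p = 0.517). Cd163 did not pass the filter on low counts. It had no count in 6 of 10 combination kidneys and in 1 of 9 vehicle kidneys, and a count of 0 allows up to 0.132 to 0.386 CPM in these combination libraries, counting error only.

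Of the 18 further myeloid genes, 14 fell with the combination and none rose (median -0.87). C1qa and C1qb, subunits of the complement protein C1q that macrophages make, fell by 1.31 ± 0.131 (adjusted p = 1.33e-07) and 1.34 ± 0.154 (adjusted p = 7.82e-07). All 9 MHC class II genes tested fell (median -1.04), with RT1-Ba at -1.21 ± 0.113 (adjusted p = 5.34e-08) and RT1-Da at -1.04 ± 0.105 (adjusted p = 1.52e-07). Of 11 inflammatory genes 8 fell and none rose, with Ccr2 at -1.26 ± 0.307 (adjusted p = 0.00296) and Itgax, the integrin CD11c, at -0.86 ± 0.12 (adjusted p = 1.12e-05). Of 10 lipid-associated genes 7 fell and 1 rose, with Trem2, a lipid receptor of macrophages, at -1.19 ± 0.197 (adjusted p = 7.98e-05) and Spp1 at -0.86 ± 0.145 (adjusted p = 9.67e-05).

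Of 7 resident and scavenger genes 3 fell, with Siglec1 at -1.56 ± 0.272 (adjusted p = 0.000132) and Clec10a at -1.23 ± 0.151 (adjusted p = 1.93e-06), and 1 rose, Mertk, a receptor for dead cells (0.30 ± 0.1, adjusted p = 0.0246, and 0.0741 without the doubted libraries). Of 7 growth factors and receptors 5 fell and 1 rose. Il34 fell by 0.93 ± 0.113 (adjusted p = 1.61e-06) and Tgfb1 by 0.56 ± 0.151 (adjusted p = 0.00608, and 0.0524 without the doubted libraries), and Csf2rb, the shared chain of the GM-CSF receptor, rose by 0.60 ± 0.124 (adjusted p = 0.000693). Without the doubted libraries the counts of genes that fell were 14 of 18 for the further myeloid genes, 9 of 9 for MHC class II, 6 of 11 for the inflammatory, 7 of 10 for the lipid-associated genes and 2 of 7 for the growth factors.

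T and NK cell genes fell in 3 of 4 tested (1 of 5 without the doubted libraries), and their summed level ran from 5.04 to 11.1 CPM on the combination and from 9.77 to 19.6 CPM on vehicle. B and plasma cell genes fell in 1 of 5 (8.6 to 35.5 CPM and 11.9 to 25.3 CPM). Dendritic cell genes fell in 1 of 4, with summed medians of 12.8 CPM on the combination (9.61 to 20.5) and 18.9 CPM on vehicle (14.7 to 22.2). Neutrophil genes fell in 1 of 2, with summed medians of 3.64 CPM (2.68 to 9.29) and 6.88 CPM (4.78 to 8.41). Of 8 kidney defining genes 1 fell and 1 rose, with summed ranges of 5762.2 to 9312.9 CPM and 7315.6 to 9791.8 CPM. Heart muscle genes summed to between 5.82 and 1073.5 CPM on the combination and between 6.9 and 12.6 CPM on vehicle, with 2 of 4 genes higher. The part of these cells and tissues in the fall of the macrophage genes was not tested.

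**Figure D2:**
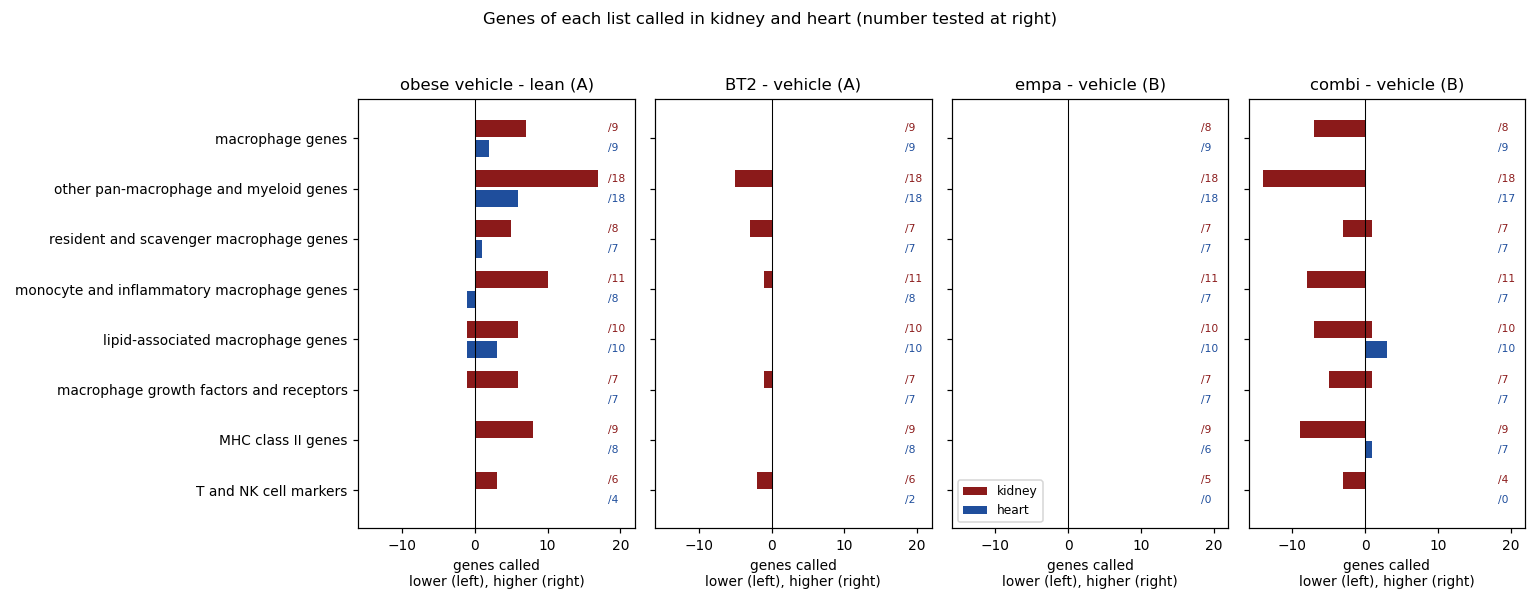
Number of genes of each list called higher (bars right of 0) or lower (bars left of 0) at an adjusted p under 0.05 in 4 comparisons, kidney in red and heart in blue, with the number tested at the right edge. In obese against lean kidneys 17 of 18 further myeloid genes were higher, and in kidney with the combination 14 of 18 were lower and 9 of 9 MHC class II genes were lower.

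Adding BT2 to empagliflozin was tested by setting the combination against empagliflozin alone, with the same combination libraries. Again 7 of 8 genes fell and none rose, where 14.8% of all genes were called lower, and the combination libraries of Cd74, Lyz2 and Ptprc all lay below the lowest empagliflozin library, as those of 1.18% of all genes did. The falls on the log2 scale were -1.25 ± 0.129 for Cd74 (adjusted p = 5.01e-07), -1.18 ± 0.185 for Cd68 (adjusted p = 6.26e-05), -1.14 ± 0.242 for Ptprc (adjusted p = 0.00112), -1.06 ± 0.126 for Lyz2 (adjusted p = 2.66e-06), -1.03 ± 0.217 for Mrc1 (adjusted p = 0.00107), -0.93 ± 0.167 for Laptm5 (adjusted p = 0.000251) and -0.72 ± 0.114 for Csf1r (adjusted p = 7.07e-05). Without empagliflozin replicate 1 these falls were smaller and still passed. Ptprc then stood at -0.845 ± 0.137 (adjusted p = 9.12e-05) and Cd68 at -1.033 ± 0.153 (adjusted p = 3.48e-05). Adgre1 gave -0.39 (adjusted p = 0.323), and without combination replicate 7 it fell by 0.81 ± 0.14 (adjusted p = 0.000201). Without the doubted libraries of both groups Adgre1 fell by 0.71 ± 0.166 (adjusted p = 0.00622). On plate 1 alone 8 fell (13.3% of all genes) and on plate 2 alone 6 (4.14%). Of the further myeloid genes 15 of 18 fell, and of the MHC class II genes 9 of 9. B and plasma cell genes fell in 4 of 5, and 2 of 5 without the doubted libraries, empagliflozin replicate 1 among them.

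In obese against lean hearts of study A, 2 of the 9 genes rose and none fell, where 3.32% of all genes were called higher. The 9 genes had a median log2 difference of 0.33 (all genes, 0.00). Mrc1 ran from 4.31 to 8.39 CPM (median 6.68) in lean and from 6.72 to 16.5 CPM (median 10.3) in obese hearts. The ranges overlapped, and Mrc1 rose by 0.65 ± 0.146 on the log2 scale (SE, adjusted p = 0.00887). Lyz2 ran from 32 to 81.4 CPM (median 48.8) and from 58 to 187.3 CPM (median 68.6). It rose by 0.79 ± 0.203 (SE, adjusted p = 0.0218), and obese replicate 10 held the 187.3 CPM. Without that heart the rise was 0.58 ± 0.169 (adjusted p = 0.0481). Lyz2 did not pass with no plate term (0.77 ± 0.217, adjusted p = 0.0554) or with the replicate number as a block (0.73 ± 0.233, adjusted p = 0.103), which left Mrc1 as the only gene called in these fits (1.87% and 2.71% of all genes higher).

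Cd68 ran from 1.05 to 5.03 CPM (median 2.49) in lean and from 2.12 to 10.9 CPM (median 3.35) in obese hearts. Replicate 10 again held the highest value, and the difference of 0.69 ± 0.262 did not pass (SE, adjusted p = 0.14). Csf1r (0.33 ± 0.144), Adgre1 (0.33 ± 0.178) and Cd163 (0.28 ± 0.143) did not pass either, with adjusted p from 0.217 to 0.355. Cd163 was well counted in heart, with 17 to 197 counts per library, and ran from 4.21 to 9.32 CPM (median 6.46) in lean and from 5.68 to 10.7 CPM (median 7.51) in obese hearts. Laptm5 (0.09), Cd74 (0.04) and Ptprc (-0.08) differed least, with 95% intervals of -0.21 to 0.39, -0.12 to 0.20 and -0.43 to 0.28. On plate 1 alone the count was 2 (3.53% of all genes) and on plate 2 alone 0 (0.313%).

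Of the further myeloid genes 6 of 18 rose in obese hearts and none fell (median 0.53). Among them were Fcer1g, the signalling chain of Fc receptors (1.11 ± 0.277, adjusted p = 0.0179), the high-affinity antibody receptor Fcgr1a (0.90 ± 0.233, adjusted p = 0.0227) and Mpeg1 (0.56 ± 0.14, adjusted p = 0.0189). Of 10 lipid-associated genes 3 rose, Gpnmb (0.89 ± 0.243, adjusted p = 0.0314), Lgals3, which encodes galectin-3 (0.58 ± 0.166, adjusted p = 0.0424, and 0.0685 without replicate 10) and Lipa, the acid lipase of lysosomes (0.37 ± 0.077, adjusted p = 0.00414), and 1 fell, Lpl, the lipoprotein lipase that heart muscle also makes (-0.53 ± 0.087, adjusted p = 0.000409). None of 8 MHC class II genes, none of 7 growth factors and receptors and none of 4 T and NK cell genes passed. The neutrophil gene S100a9 rose by 1.63 ± 0.377 (adjusted p = 0.0105), and the summed neutrophil list ran from 1.75 to 5.72 CPM in lean and from 3.29 to 34.1 CPM in obese hearts. Genes of the heart's atria had 1 of 6 higher, with summed levels of 361.1 to 1317.3 CPM in lean (median 501.4) and 491.2 to 3091.2 CPM in obese hearts (median 1055.0). The part of neutrophils and of the atria in the rise of Lyz2 and Mrc1 was not tested.

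No macrophage gene passed in the other heart comparisons. With BT2, where 0.0558% of all genes were called, 6 of 9 passed at an unadjusted p under 0.05 (986 genes in all), and the median log2 difference was -0.48 against 0.01 over all genes. The 6 were Cd68 (-0.52), Mrc1 (-0.48), Csf1r (-0.39), Adgre1 (-0.58), Cd163 (-0.50) and Lyz2 (-0.52), with adjusted p from 0.241 to 0.57. BT2-treated obese hearts against lean ones gave none of 9 (4.27% of all genes called, none of the 9 at an unadjusted p under 0.05). Empagliflozin gave none (0.107%, none at an unadjusted p), and on plate 1 alone Ptprc passed at 0.81 ± 0.156 (adjusted p = 0.0117). That plate 1 fit called 1236 genes in all, against 13 in the main fit. With the combination none passed (5.13%, 1 at an unadjusted p), and Cd74 came closest with 0.20 ± 0.07 (adjusted p = 0.0934), which DESeq2 called at an adjusted p of 0.049. DESeq2 called 898 genes in all there, against 622 in the main fit. The combination against empagliflozin gave none (0.0249%, none at an unadjusted p). In study B hearts the summed atrial genes ran from 324.2 to 13270.5 CPM on vehicle and from 475.7 to 12722.4 CPM on empagliflozin. On the combination they ran from 585.8 to 3550.6 CPM. The part of the atria in these comparisons was not tested.

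Among the other lists, 3 of 10 lipid-associated genes rose in heart with the combination, Spp1 (2.41 ± 0.636, adjusted p = 0.0285), Gpnmb (1.41 ± 0.415, adjusted p = 0.0482) and Lpl (0.48 ± 0.094, adjusted p = 0.00405). The share of all genes called higher there was 3.58%. Without combination replicate 6, Spp1 rose by 1.22 ± 0.307 (adjusted p = 0.0194) and Gpnmb did not pass (0.74 ± 0.245, adjusted p = 0.0736). Of 7 MHC class II genes 1 rose, RT1-DMb (0.30 ± 0.074, adjusted p = 0.018). None of 17 further myeloid genes passed. In heart, libraries of plate 2 had higher Cd74 than those of plate 1 in every group, with group means of 263 to 309 CPM against 178 to 219 CPM. The plate is a term of every main fit.

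**Figure D3:**
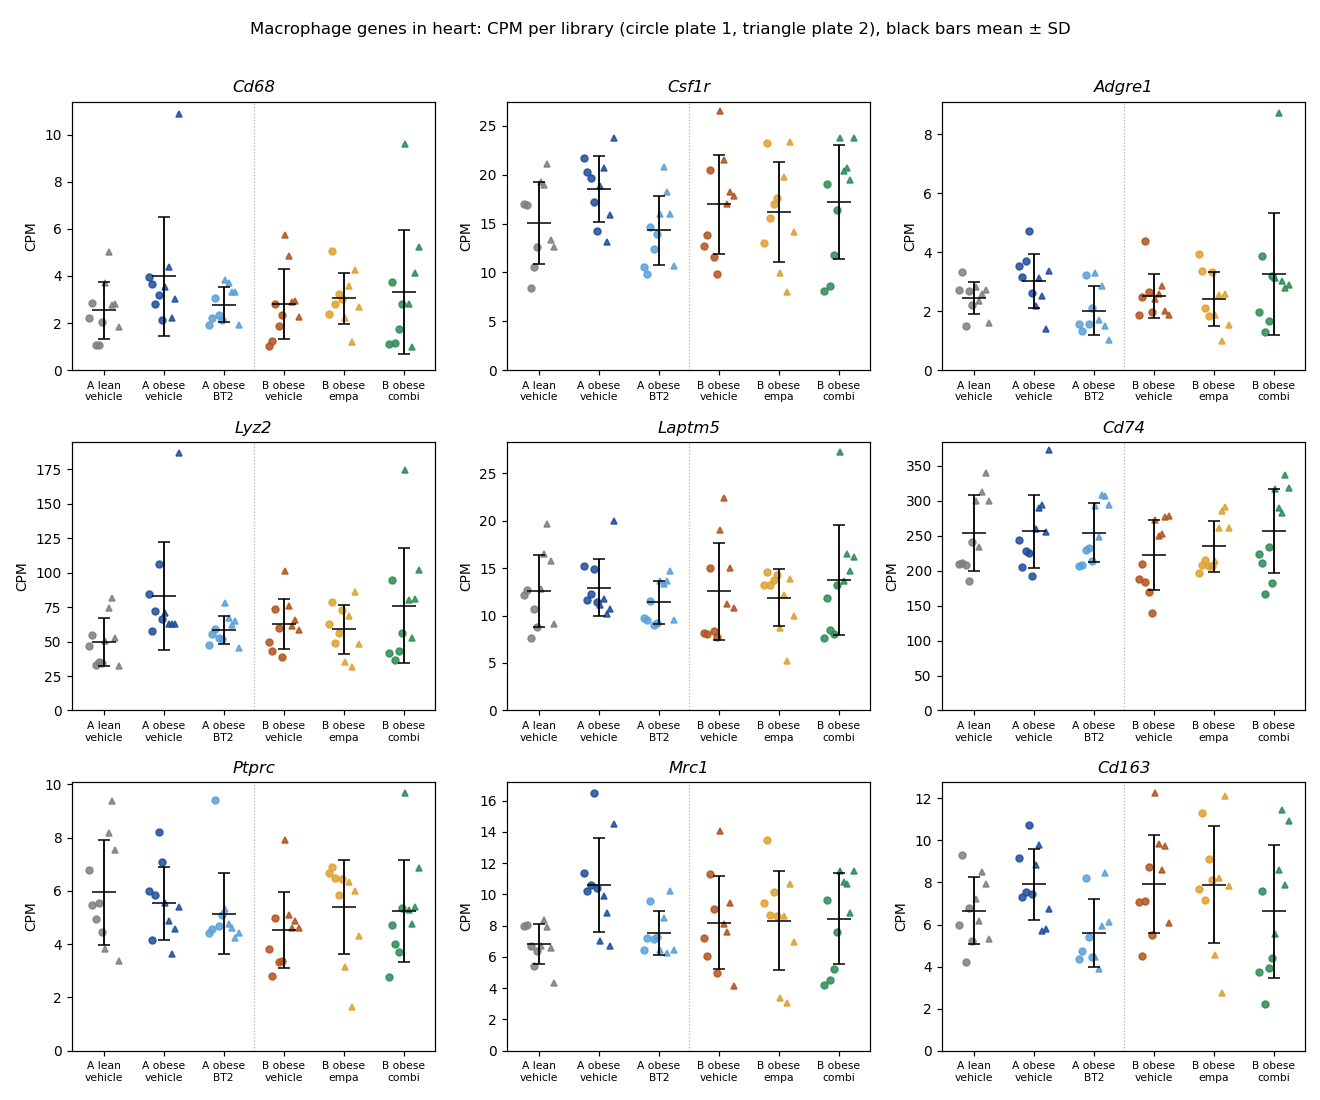
CPM of the 9 genes in each heart library, drawn as for kidney, with the mean and SD in black. Mrc1 and Lyz2 stand higher in obese than in lean vehicle hearts of study A, with overlap, and Cd74 is higher in the triangles of plate 2 than in the circles of plate 1.

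The 2 organs were compared by testing the difference of the effects itself. Which libraries of both organs share an animal is not in the labels, so they were treated as separate samples. For obesity, heart minus kidney, 3 of 9 genes had a smaller effect in heart and none a larger one, where 7.64% of all genes were called lower. These were Laptm5 (-1.17 ± 0.206, adjusted p = 0.000134), Ptprc (-1.04 ± 0.268, adjusted p = 0.00702) and Csf1r (-0.73 ± 0.182, adjusted p = 0.00522). Without the doubted libraries 7 of 9 passed (10.8% of all genes lower), Mrc1 (-1.11), Cd68 (-0.95), Lyz2 (-0.86) and Cd74 (-0.35) being added. Part of that gain follows from which libraries were left out. Among them, kidney lean replicate 8 was highest of its group in Mrc1, Laptm5, Cd163 and Lyz2. Heart obese vehicle replicate 10 was highest of its group in Cd68, Laptm5 and Lyz2. For the combination, 6 of 9 had a higher value in heart than in kidney, where 8.30% of all genes were called higher. They were Cd68 (1.51 ± 0.335, adjusted p = 0.00154), Lyz2 (1.35 ± 0.24, adjusted p = 0.000101), Cd74 (1.27 ± 0.127, adjusted p = 1.76e-09), Laptm5 (1.00, adjusted p = 0.00175), Ptprc (0.95, adjusted p = 0.00323) and Csf1r (0.80, adjusted p = 0.00562). Mrc1 stood at 0.80 (adjusted p = 0.0609). It passed with DESeq2 (0.79, adjusted p = 0.0463) and with rats taken to be matched by replicate number as a block (0.87, adjusted p = 0.0359), which made 7 of 9 (8.27% and 6.39% of all genes higher). For BT2 none of 9 differed between organs (0.528% of all genes called) and for empagliflozin none (1.39%), and none of the 9 did so at an unadjusted p under 0.05 either.

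**Figure D4:**
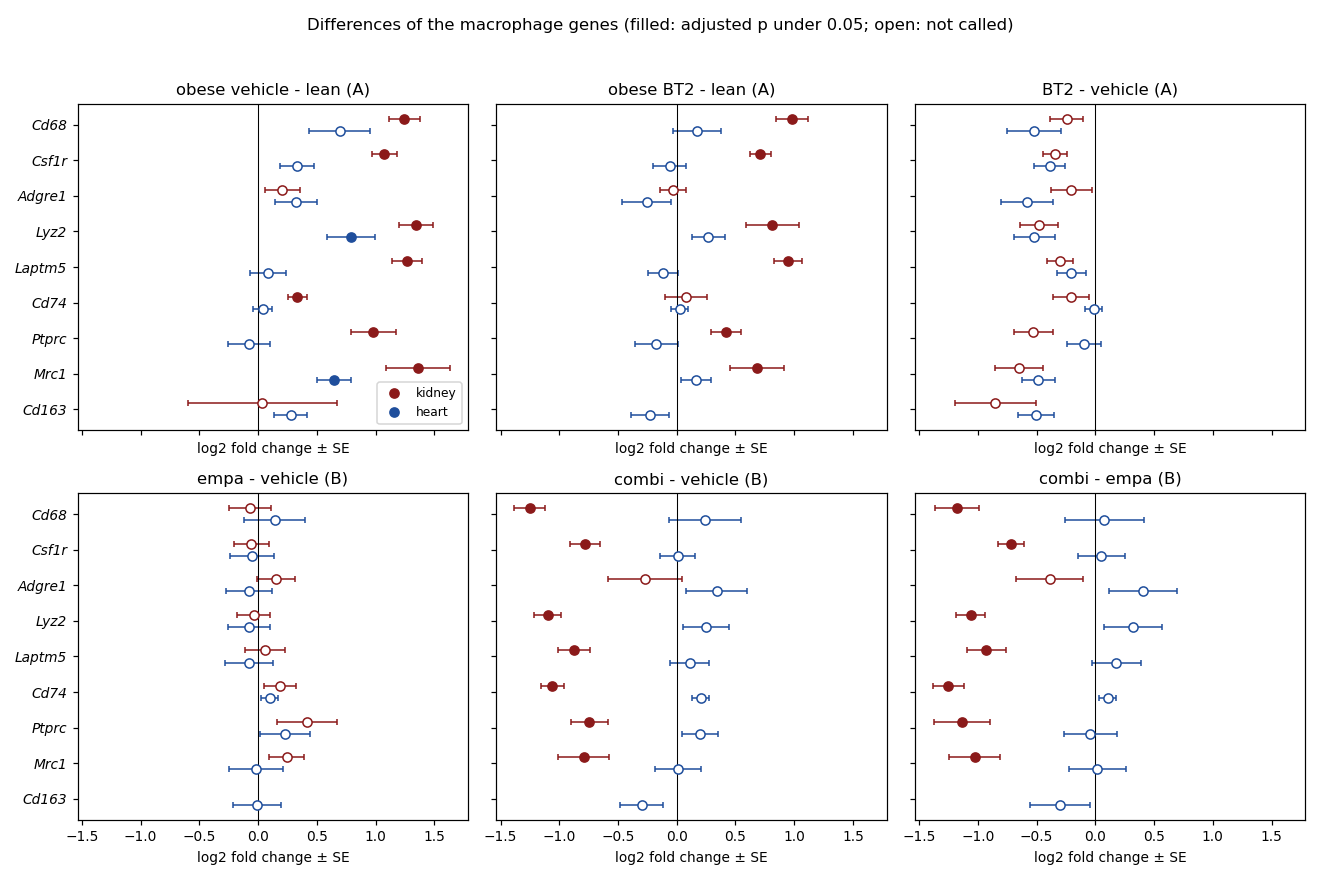
Log2 difference and SE of the 9 genes in each comparison, kidney and heart side by side, with filled symbols for genes at an adjusted p under 0.05. Kidney values lie above 0 in obese vehicle against lean and below 0 with the combination, while heart values for the combination against vehicle lie between -0.30 and 0.34.

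The 2 obese vehicle groups gave different kidney levels for several genes, side by side and not compared by a test. Mean Cd68 was 11.2 ± 2.22 CPM in study A (SD, n = 10) and 16.9 ± 3.27 CPM in study B (SD, n = 9). Ptprc went the other way, with 37.5 ± 14.1 and 19.9 ± 5.87 CPM, as did Mrc1 (15.3 ± 5.48 and 7.25 ± 1.84 CPM) and Adgre1 (23.9 ± 8.39 and 12 ± 4.53 CPM). Csf1r stood at 81.5 ± 15.6 and 71 ± 19.3 CPM and Lyz2 at 844.5 ± 100.9 and 704.3 ± 155.5 CPM, within their spread. In order of mean level over the 6 kidney groups, Cd68, Csf1r and Laptm5 were lowest in the lean group, and the other 6 genes in the combination group. Neighbours in that order are called apart here where their means differed by more than the larger of their SDs. The order crosses the 2 studies, which may differ in the part of the kidney taken. A place of the combination next to lean is therefore no test of a return to the lean level. Cd68 fell into 3 levels, with lean lowest, the combination next, and the other 4 groups above. Csf1r and Lyz2 fell into 2, with lean and the combination together at the bottom and the 4 other groups together above. Laptm5 fell into 4, with lean lowest, then the combination with BT2, then obese vehicle of study A, and obese vehicle of study B with empagliflozin on top. For Cd74 and Ptprc the combination stood apart below lean, for Cd74 obese vehicle of study B and empagliflozin also stood apart above the other groups, and for Mrc1 obese vehicle of study A stood apart above the rest. For Adgre1 the 3 groups of study A stood apart above the 3 of study B. For Cd163 no neighbours were apart, and in heart none were for any of the 9 genes.

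Across libraries the 9 genes did not all run together. Over the 58 kidney libraries with at least 1000000 counts, Pearson's r of log2 CPM over the 36 pairs had a median of 0.61 and ran from -0.05 (Adgre1 with Laptm5) to 0.95 (Cd68 with Laptm5). These libraries share plates, depth and, in part, treatment groups, so r is a description and carries no p. Around the group means the median was 0.57, with a range from 0.10 to 0.86. Adgre1 with Laptm5 stood at 0.50 around the group means and Adgre1 with Cd68 at 0.39, against -0.04 over all libraries. Each gene was also set against the mean of the other 8 in kidney. Lyz2 (0.92), Csf1r (0.89), Ptprc (0.85) and Mrc1 (0.83) followed it most closely, and Cd163 (0.46) and Adgre1 (0.38) least. In the 60 heart libraries the pairs had a median of 0.59, Csf1r (0.88), Laptm5 (0.88) and Lyz2 (0.86) followed the others most closely, and Cd74 (0.34) least.

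The genes outside the 9 whose log2 CPM ran most like the mean of the 9 were mostly known from white blood cells. Over the 58 kidney libraries and 13501 genes these were Lcp1, the plastin of white blood cells (r = 0.95), Ctss (0.94), Col3a1, the fibroblast collagen (0.91), Mpeg1 (0.91), Nckap1l, an actin regulator of blood cells (0.90), Ms4a6bl (0.90), Itgam (0.89) and Itgax (0.89). Over the 60 heart libraries and 12094 genes they were Ctss (0.88), Fcgr2a, an antibody receptor (0.86), Lcp1 (0.85), P3h3, an enzyme of collagen modification (0.84), Pld4, a lysosomal nuclease (0.84), Clec10a (0.84), Aif1, the microglia and macrophage protein IBA1 (0.82) and Gm2a, a lysosomal lipid-binding protein (0.82). The symbol Fcgr2a stands on several gene entries, and its value here is that of a single entry. Ctss and Lcp1 were among the 8 of both organs.

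**Figure D5:**
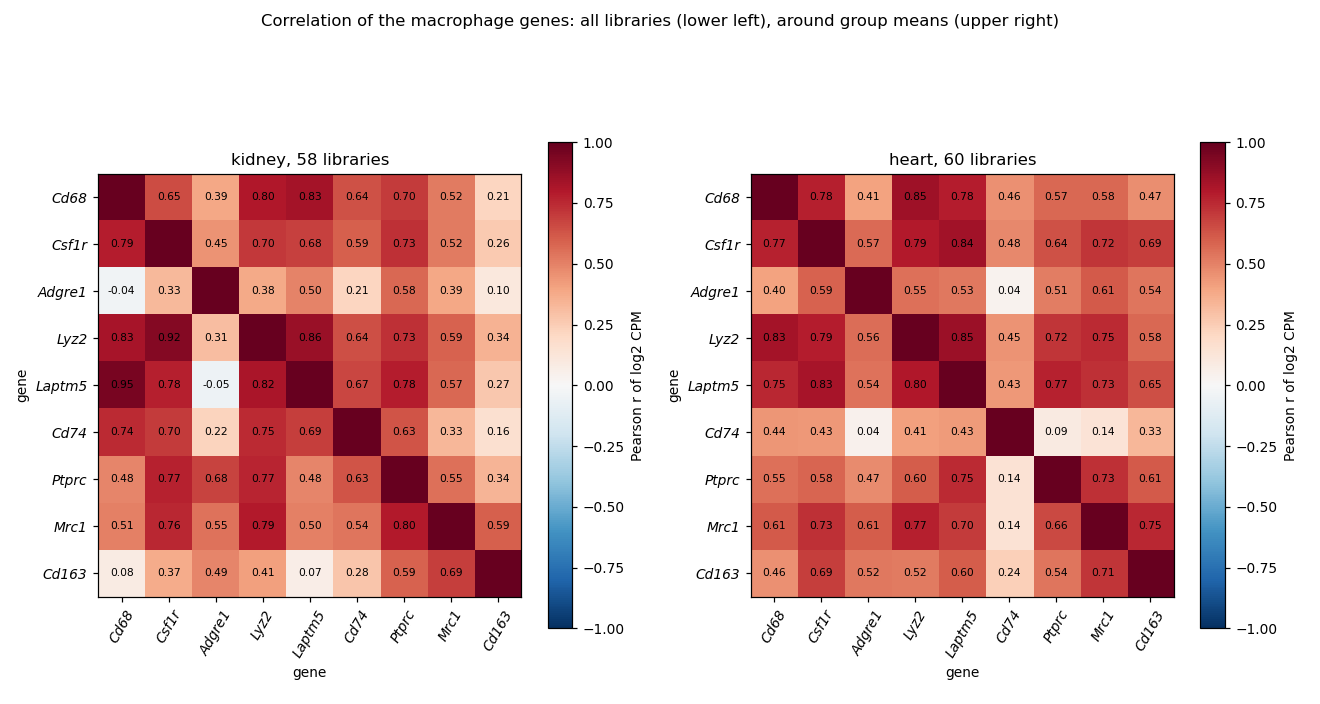
Pearson's r of log2 CPM between the 9 genes in kidney (58 libraries) and heart (60 libraries), over all libraries below the diagonal and around the group means above it. In kidney Cd68 and Laptm5 reach 0.95 over all libraries while Adgre1 with Laptm5 is at -0.05, and in heart Cd74 has the palest row and column.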

How the data were processed

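Poly-A RNA of frozen tissue was made into stranded libraries, per the labels. In the count tables, the authors deposited expected counts, estimated per gene and sequencing run and not normalized. The authors' deposited comparison tables hold signal (counts scaled per library), log2 fold changes and p-values. Salmon 1.5.2, STAR 2.7.3a, DESeq2 1.34.0 and build mRatBN7.2 are named, without parameters, per the submitters' processing notes. Runs of one library were summed (43 had a repeat run) and rounded, and 82 count columns that match no sample were not used here. Genes were tested in R 4.3.3 with edgeR 4.0.16 (filterByExpr, TMM, trended dispersion, plate as covariate), each pair of groups in its own fit, adjusted over all genes tested. The interaction of organ and treatment tested differences between organs, with kidney and heart libraries as separate samples although they may come from the same rats. CPM values use TMM factors over an organ's 60 libraries. Alternatives included DESeq2 1.42.0, the block and leaving out libraries. The pipeline was tested on simulated data. Of 156 list symbols 144 were matched. Up to 4 called genes of a list, those of smallest adjusted p, could be named, and the 8 most correlated genes. The 9 genes and the lists were chosen with earlier results of these data known. Promoters are RefSeq's, on GRCr8, a later build than that of the counts. A total of 10 libraries per group limits the precision, and floors cover counting error only.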

Additional observations from a re-analysis of the deposited data

Results flagged for a closer look

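Of 108 groups of libraries of one gene, 24 held a library set apart from the others of its group by Dixon's test at the 95% level, which chance gives in about 5% of groups. Flags of one library are not independent of each other.

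Kidney empagliflozin replicate 1 held the highest value of its group in 6 genes, with Cd68 at 30.42 CPM, Cd74 at 1589.0 CPM, Laptm5 at 120.9 CPM, Cd163 at 2.082 CPM, Lyz2 at 1113.0 CPM and Ptprc at 83.27 CPM. Kidney lean replicate 8 was highest in 4 genes, with Mrc1 at 14.18 CPM, Laptm5 at 28.61 CPM, Cd163 at 7.521 CPM and Lyz2 at 662.5 CPM. Kidney combination replicate 7 held Adgre1 at 35.67 CPM, where the other 9 ran from 5.09 to 10 CPM. Obese vehicle replicate 8 of study A held Cd74 at 977.2 CPM, obese vehicle replicate 1 of study B held Cd163 at 1.737 CPM, and BT2 replicate 1 held the lowest Lyz2 of its group, at 473.6 CPM.

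In heart, obese vehicle replicate 10 of study A was highest in Cd68 at 10.89 CPM, Laptm5 at 19.96 CPM and Lyz2 at 187.3 CPM. Combination replicate 6 was highest in the same 3 genes, with Cd68 at 9.589 CPM, Laptm5 at 27.2 CPM and Lyz2 at 174.5 CPM. Adgre1 stood apart in combination replicate 7 at 8.721 CPM and in obese vehicle replicate 3 of study B at 4.384 CPM. Ptprc stood apart in BT2 replicate 3 at 9.408 CPM and in obese vehicle replicate 6 of study B at 7.91 CPM.

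The effects of obesity and of the combination differed between organs in 9 tests of that difference. For obesity, heart minus kidney, the log2 differences were -0.733 for Csf1r, -1.174 for Laptm5 and -1.041 for Ptprc. For the combination they were 1.506 for Cd68, 1.274 for Cd74, 0.797 for Csf1r, 1.0 for Laptm5, 1.353 for Lyz2 and 0.952 for Ptprc.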

How the results depend on the processing

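Over 1297 values of single genes under alternatives, 1250 stayed on their side of the threshold, 16 lost the call and 31 gained it. Of the called values, 0 changed sign. Values that were not called could change sign, as Adgre1 did in kidney with the combination against vehicle (-0.981 to 0.475). Of 38 called results, 28 kept the call under every alternative run, and 10 of the 16 losses came from one plate alone, which has fewer libraries. Of the called genes of the other lists, 112 of 202 results kept the call under every alternative. Of 1986 of their values under alternatives 217 lost the call, 101 of them on one plate alone, 33 with the block and 25 with no plate term, and 0 changed sign. Of 151 counts of called genes, 138 stayed within 1.5 times the reported count. Brackets give the number of all genes called in that fit, in either direction. In kidney, obese against lean (4560 in the main fit) gave 4 on plate 2 alone (976). BT2 in kidney (812 in the main fit) gave 4 with DESeq2 (1349) and 1 with DESeq2's size factors (863). It also gave 1 on plate 1 alone (107) and 2 with all 6 groups in one fit (1248). Both without the doubted libraries and without BT2 replicate 2 it gave 2 (1186 each). In heart, obese against lean (680 in the main fit) gave 1 with no plate term (372) and 0 on plate 2 alone (49). Empagliflozin in heart (13 in the main fit) gave 1 on plate 1 alone (1236). The combination in heart (622 in the main fit) gave 1 with DESeq2 (898). The organ difference of the obesity effect (2097 in the main fit) gave 7 without the doubted libraries (2460). The cause of these changes was not tested. A plate alone also holds fewer samples.

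With the replicate number as a block, obese against lean heart gave 1 called gene, Lyz2 falling out at 0.73 ± 0.233 (adjusted p = 0.103). With rats matched across organs by that number, Mrc1 passed in the organ difference of the combination effect (0.87, adjusted p = 0.0359). Kidney and heart libraries of one group and number had correlated deviations over 0.1 in 8 of 58 pairs. Of these 58, 6 matched their own number best. Same-numbered libraries of different groups had correlated deviations over 0.1 in 22 of 116 pairs. In 10 of these 116 the library matched its own number best, so the numbers were not taken to pair libraries of different groups. These values cannot settle whether kidney and heart libraries of one number share a rat. Combination replicate 7 held the highest Adgre1 of its group in both organs. Lean replicate 8 had Actc1 at 2462.8 CPM in kidney and Umod at 66.2 CPM in heart. Leaving out kidney combination replicate 7 and heart combination replicates 6 and 7 was chosen after seeing the data. Depth limits Cd163 in kidney most, with a median of 5 counts per library.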
